A study of Sus scrofa with 12 samples.

Results

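The genes described are the mitotic cyclins, their kinase CDK1 and its direct regulators: CCNB1, CCNB2, CCNB3, CCNA1, CCNA2, CDK1, WEE1, WEE2, CDC25B and CDC25C. They were taken by symbol from the deposited gene count table of porcine embryos, where all 10 were found among 29329 genes and all 10 passed the filter on low counts that left 17995 genes for testing. The question was whether other M-phase cyclins or regulators of CDK1 shift when cyclin B2 is depleted.

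Entry into mitosis is driven by CDK1, a kinase that is active only when bound to a cyclin. B cyclins accumulate before division and are destroyed at anaphase, whereas A cyclins act from DNA replication to early mitosis. WEE1 and its oocyte relative WEE2 hold CDK1 inactive by phosphorylation, and the CDC25 phosphatases remove that mark. An early embryo divides at first on mRNAs and proteins stored in the oocyte, and its own genome is activated later, which in the pig takes place around the 4-cell stage.

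The embryos (Sus scrofa) came from in vitro fertilization with semen of Landrace boars, and each library was made by SMART-seq from a pool of embryos. In SMART-seq, polyadenylated RNA is primed with oligo(dT), copied over its whole length and amplified by PCR. There were 12 libraries in 4 groups of 3, named after their titles: con-2c and con-4c (treatment label blank control) and si-2c and si-4c (treatment label si-CCNB2, a short interfering RNA against CCNB2 that the study injected into fertilized eggs). The methods call the control embryos both normal and the NC group of Si-CCNB2, so whether they had been injected was unclear, and a difference between si and control libraries may include the injection. No genotype, embryo age in hours or sex is given in the labels, and neither is the origin of pools from separate fertilizations, so p-values measure the spread between these pools. Titles and tissue labels gave opposite stages for all 12 libraries: a title with 2c went with a tissue label of 4-cell embryos, and a title with 4c with one of 2-cell embryos. The group names used here stand for the titles only.

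The 12 libraries held 27785233 to 39510908 counts. The number of genes detected was 18034 to 18819 for con-2c, 18083 to 18231 for si-4c, 21181 to 21647 for con-4c and 22105 to 23279 for si-2c. Genes passed the test at an adjusted p below 0.05 (edgeR). The 2c contrast sets si-2c against con-2c, and 29.0% of the genes tested passed in it. The 4c contrast is its counterpart under the other title, with 36.8% of genes passing. The crossed contrasts pair unlike titles: the first (si-4c relative to con-2c) had 0.672% of genes passing and the second (si-2c relative to con-4c) 7.54%. The average contrast is the mean of the si minus control differences of both titles, which sets all 6 si libraries against all 6 control libraries and gives the same value whichever stage label is read. In it 5.0% of the genes passed. The control contrast (4c relative to 2c among controls), the si contrast (the same among si libraries) and the interaction (4c contrast minus 2c contrast) complete the 8 comparisons. Of the oocyte and early embryo markers GDF9, BMP15, ZP2, ZP3, ZP4, NLRP5, OOEP and NPM2, 7 of 8 were in the table and all 7 were tested. Their summed level was 3947 to 4412 CPM (counts relative to the library total, scaled by TMM, a correction for library composition) for con-2c, 3687 to 3812 for si-4c, 2497 to 2562 for con-4c and 2750 to 2943 for si-2c. The cumulus and granulosa cell markers in the table (7 of 8) summed to 0.607 to 4.23 CPM over the libraries and the sperm markers (3 of 8) to 0 to 1.16 CPM. The hyaluronan synthase gene HAS2 was counted in 1 library and the luteinizing hormone receptor gene LHCGR in 3. In pooled embryos, fewer blastomeres and less RNA per blastomere cannot be told apart.

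The sequences of the siRNAs are shown because CCNB2 is their target and because one of them shares a stretch with the primer by which the study measured CCNB2 in other embryos. The study lists 2 siRNAs, and the labels do not say which of them, or whether a mixture, was injected into the embryos of these libraries. Each is 19 bases long, printed 5′ to 3′ in the orientation in which the study lists it, and capitals mark the 11 bases that Si-CCNB2-2 (from its base 1) and the forward PCR primer for CCNB2 (from its base 13, with T for U) have in common:
Si-CCNB2-2: GCUUAUACCAGuucccaaa
CCNB2 forward primer: atcacagacaacGCTTATACCAG
Si-CCNB2-1: gcagguccacuccaaguuu
The longest run that Si-CCNB2-1 shares with either primer, on either strand, is 4 bases. The GC content is 52.6% for Si-CCNB2-1 and 42.1% for Si-CCNB2-2. The counts below come from reads over whole transcripts and do not depend on that primer.

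CCNB2, the targeted B cyclin (ENSSSCG00000004588, chr1:112907047-112942218, build Sscrofa11.1, gene span in RefSeq), checks the treatment labels. Its level was 463, 487 and 444 CPM in the con-2c libraries and 510.4, 485 and 429 CPM in the con-4c libraries. In si-2c it was 17.8, 28.8 and 21.6 CPM, and in si-4c 40.7, 46.8 and 40.3 CPM. All 6 si libraries lay far below all 6 control libraries, and none was at 0 (730 to 1620 reads). The log2 fold change was -4.36 (SE 0.15, adjusted p = 1.53e-12) in the 2c contrast, which leaves 4.88% of the control level, and -3.48 (SE 0.14, adjusted p = 5.14e-12) in the 4c contrast, which leaves 8.98%. In the average comparison it was -3.92 (SE 0.10, adjusted p = 3.28e-13, n = 6 against 6), and CCNB2 had the smallest p of all genes tested. Within the si arm, the si-4c libraries exceeded those of si-2c by 0.91 on the log2 scale (SE 0.13, adjusted p = 5.63e-05) with no overlap of the libraries, and with library totals by 0.53 (adjusted p = 0.00330). Between the control groups the difference was 0.03 (95% interval -0.23 to 0.30, adjusted p = 0.879). The si difference of CCNB2 thus depended on the title (interaction 0.88, SE 0.18, adjusted p = 7.89e-04), although with scaling by library totals this was 0.23 (adjusted p = 0.299).

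**Figure D1:**
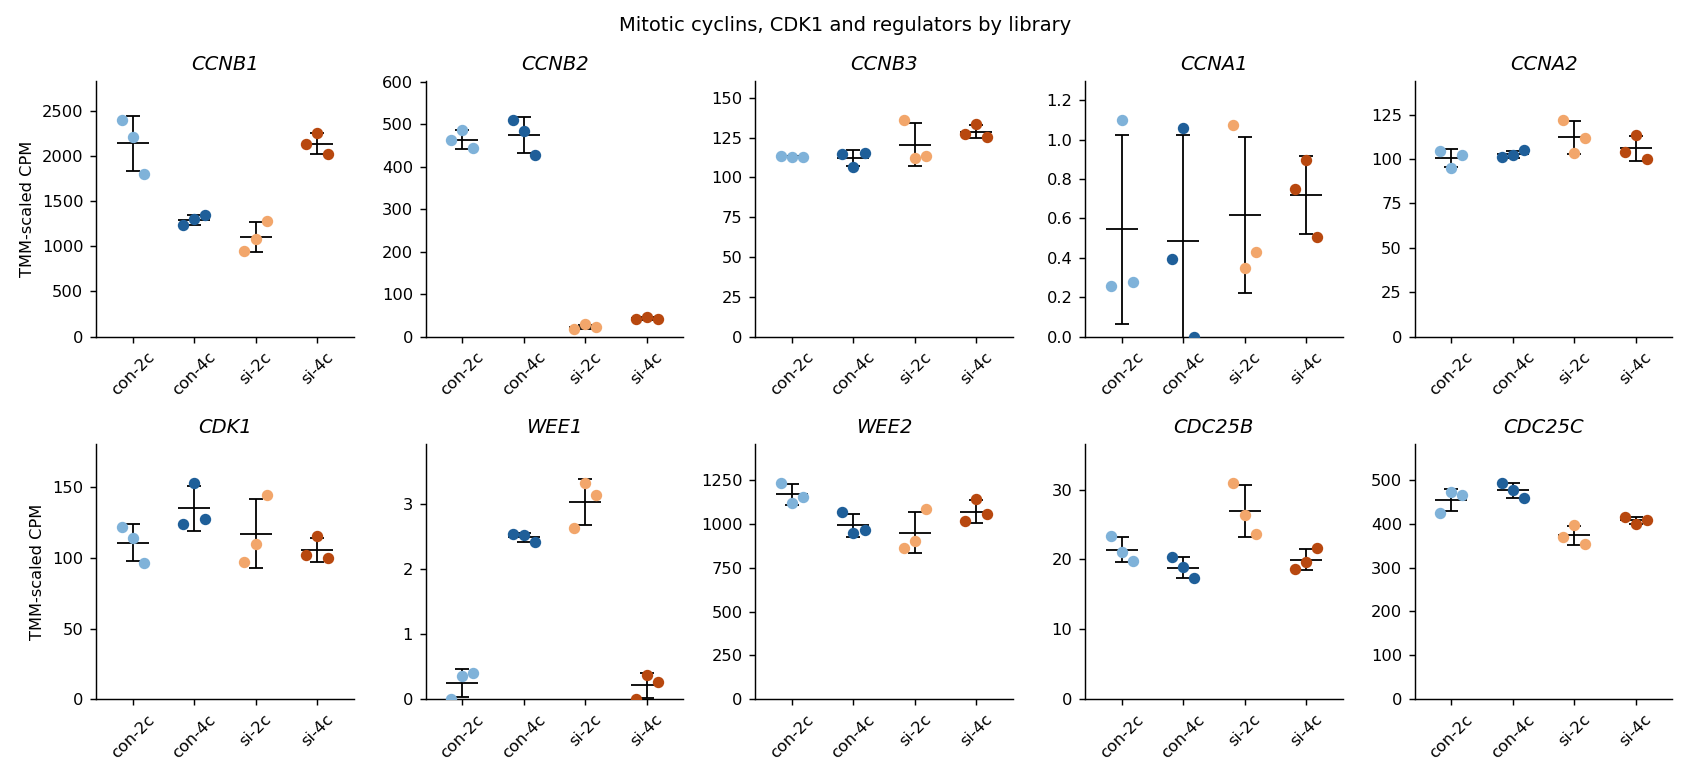
Level of each gene in TMM-scaled CPM (vertical axes, linear from 0, a separate scale for each gene) in the 12 libraries, with 3 points a group (replicates 1, 2 and 3 from left to right), a dash for the mean and bars for the SD (cut at 0 for CCNA1). CCNB2 is low in both si groups, whereas CCNB1 and WEE1 separate con-2c and si-4c from con-4c and si-2c.

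Of the 10 genes, 5 passed in the 2c contrast (1 higher, 4 lower) and 5 in the 4c contrast (1 higher, 4 lower), beside 29.0% and 36.8% of all genes. With library totals in place of TMM 7 passed in the 2c contrast (5 higher, 2 lower), beside 37.4%, and 5 in the 4c contrast (1 higher, 4 lower), beside 37.0%. The median log2 fold change of the 10 was 0.09 and 0.06, against 0.12 and -0.11 over all genes tested. In the average comparison 2 of 10 passed, CCNB2 and CDC25C, both lower, beside 5.0% of all genes. At an additional minimum of 2-fold, the limit of the study, 2, 2 and 1 of the 10 remained in these comparisons, where 12.5%, 19.0% and 0.750% of all genes did. CCNB2 is the target, which leaves 1 of 9 other genes passing in the average comparison and none of them with a 2-fold change. The 3 comparisons share libraries and are not independent of each other.

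CCNB1, the other major mitotic B cyclin (ENSSSCG00000029326, chr16:47338239-47348385), moved in opposite directions under the titles. Its level was 2402, 2217 and 1809 CPM in con-2c and 2134, 2261 and 2026 CPM in si-4c. For con-4c it was 1239, 1305 and 1343 CPM, and for si-2c 954, 1077 and 1280.3 CPM. The si-4c libraries lay within the range of con-2c, and those of si-2c overlapped con-4c at its lower end. CCNB1 fell by 0.96 on the log2 scale (SE 0.11, adjusted p = 4.55e-06) in the 2c contrast and rose by 0.72 (SE 0.11, adjusted p = 5.58e-05) in the 4c contrast. Its difference in the control contrast was also a fall, by 0.73 (SE 0.11, adjusted p = 5.43e-05). With library totals these 3 differences were -0.55 (adjusted p = 3.30e-04), 0.47 (adjusted p = 0.00124) and -0.45 (adjusted p = 0.00181). The averaged si difference was -0.12 (95% interval -0.28 to 0.05, adjusted p = 0.484). The crossed differences were -0.0017 (95% interval -0.23 to 0.23) in the first crossed contrast and -0.23 (SE 0.11, adjusted p = 0.257) in the second crossed contrast. The second crossed contrast passed for CCNB1 only without si-2c replicate 3 (-0.35, adjusted p = 0.0484).

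CCNB3, a B cyclin known mainly from meiosis (ENSSSCG00000012307, chrX:43922729-43988939), varied over a narrow range. Its level was between 112.8 and 113.6 CPM for con-2c, 125 and 133 for si-4c, 107 and 115 for con-4c, and 112 and 136 for si-2c. The log2 difference was 0.09 (SE 0.08, adjusted p = 0.466) in the 2c contrast, 0.20 (SE 0.08, adjusted p = 0.0717) in the 4c contrast and 0.14 (95% interval 0.02 to 0.27, adjusted p = 0.193) on average. All 3 si-4c libraries were above all control libraries, yet none of the 8 comparisons passed the test for CCNB3 with TMM scaling. With library totals the si-4c libraries (111 to 121 CPM) overlapped those of con-4c (112 to 125 CPM), and the 4c difference was -0.060 (adjusted p = 0.674). Under that scaling CCNB3 passed in the 2c contrast (0.49, adjusted p = 7.22e-04) and, with the sign turned, in the control contrast (0.26, adjusted p = 0.0424), the si contrast (-0.29, adjusted p = 0.0258) and the interaction (-0.55, adjusted p = 0.00285). It also passed in the 4c contrast when only the groups compared were fitted (0.18, adjusted p = 0.0297) or without si-2c replicate 1 (0.20, adjusted p = 0.0375).

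The reads of the B cyclins can be summed within each library. CCNB2 took 17.2% ± 1.61 (SD, n = 3) of them for con-2c and 25.2% ± 2.36 for con-4c, but only 1.83% ± 0.462 for si-2c and 1.84% ± 0.0759 for si-4c. In the same order of groups, CCNB1 took 78.6% ± 2.09, 68.8% ± 2.36, 88.3% ± 2.17 and 92.6% ± 0.128, and CCNB3 took 4.20% ± 0.510, 5.96% ± 0.298, 9.83% ± 2.19 and 5.57% ± 0.127. Transcripts of different length yield different numbers of reads, so these are shares of reads, not of molecules. The summed level of the B cyclins was 2365 to 2979 CPM for con-2c, 2191 to 2441 for si-4c, 1864 to 1897 for con-4c and 1108 to 1415 for si-2c. With TMM the si-4c libraries had a larger sum than every con-4c library despite their low CCNB2, but by library totals they overlapped (2004 to 2214 CPM for si-4c and 2001 to 2038 for con-4c).

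**Figure D2:**
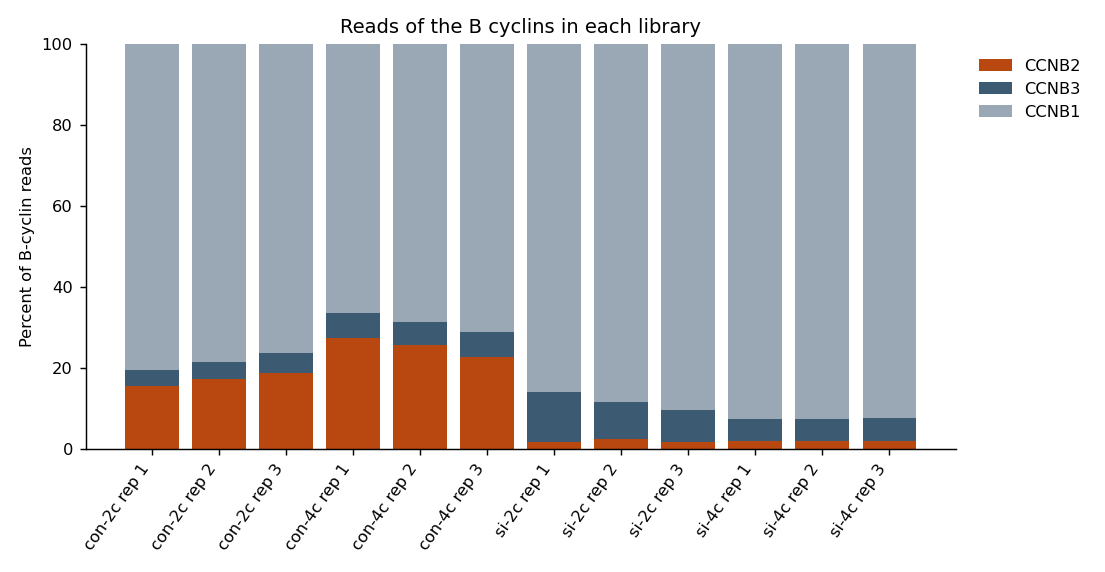
Percent of all B-cyclin reads (vertical axis, from 0 to 100) that fall on CCNB2, CCNB3 and CCNB1 in each of the 12 libraries (bars, stacked). CCNB2 holds between 15.5% and 27.4% in the control libraries and between 1.53% and 2.36% in the si libraries.

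The A cyclins did not pass in any of the 8 comparisons with TMM scaling. CCNA2, which pairs with CDK2 and CDK1 in somatic and embryonic divisions (ENSSSCG00000060144, chr8:102260346-102266274), was 95.2 to 105 CPM for con-2c, 100.2 to 114 for si-4c, 101 to 105 for con-4c and 103 to 122 for si-2c. Its si difference was 0.16 (SE 0.08, adjusted p = 0.168) under the 2c titles, 0.04 (SE 0.08, adjusted p = 0.722) under the 4c titles and 0.10 (95% interval -0.02 to 0.22, adjusted p = 0.395) on average. The interval of the average excludes a change of 2-fold in either direction. With library totals CCNA2 passed in the 2c contrast (0.56, adjusted p = 2.79e-04), the control contrast (0.30, adjusted p = 0.0227), the si contrast (-0.47, adjusted p = 0.00131) and the interaction (-0.77, adjusted p = 1.98e-04). With a stricter filter on low counts (10 CPM in 3 libraries) it passed in the 2c contrast (0.24, adjusted p = 0.0171) and the interaction (-0.31, adjusted p = 0.0254). CCNA1, the germline A cyclin (ENSSSCG00000009354, chr11:12396149-12405357), was barely detected, with 0 to 44 reads a library and a level of 0 to 1.10 CPM. At that depth its averaged difference of 0.37 had a 95% interval of -1.06 to 1.80, so a change of 2-fold in either direction lay within the interval and was not detectable at this depth.

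CDK1, the kinase itself (ENSSSCG00000010214, chr14:64233945-64255290), had overlapping levels in most groups. Its level was 122, 114 and 96.2 CPM for con-2c, 102, 115 and 99.8 CPM for si-4c, 124, 153 and 128 CPM for con-4c and 96.7, 110.1 and 144 CPM for si-2c. Libraries of con-2c, si-2c and si-4c overlapped, and those of con-4c lay above those of si-4c. In the 4c contrast CDK1 was lower by 0.35 on the log2 scale (SE 0.13, adjusted p = 0.0455). This call was lost when any of 8 of the 12 libraries was left out (con-2c replicates 1 and 2, con-4c replicates 1, 2 and 3, si-2c replicate 2, si-4c replicates 1 and 3), with adjusted p between 0.0526 and 0.214. In the 2c contrast the difference was 0.08 (SE 0.13, adjusted p = 0.715), and the averaged difference was -0.14 (95% interval -0.33 to 0.06, adjusted p = 0.506). The interaction missed the threshold (-0.44, SE 0.19, adjusted p = 0.0679). It passed with the DESeq2 Wald test (-0.49, adjusted p = 0.0440), with DESeq2 size factors (-0.49, adjusted p = 0.0465), with no filter (-0.42, adjusted p = 0.0366), with the stricter filter (-0.63, adjusted p = 0.00340) and without si-2c replicate 1 (-0.55, adjusted p = 0.0215). With library totals CDK1 passed in the 4c contrast (-0.61, adjusted p = 0.00162), the 2c contrast (0.49, adjusted p = 0.00803), the control contrast (0.56, adjusted p = 0.00289), the si contrast (-0.53, adjusted p = 0.00472) and the interaction (-1.10, adjusted p = 1.20e-04).

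WEE1, the somatic inhibitor of CDK1 (ENSSSCG00000013411, chr2:49880416-49894509), was counted at a low level. The reads were 0, 12 and 13 for con-2c and 0, 13 and 9 for si-4c. They were 77, 76 and 74 for con-4c and 108, 124 and 146 for si-2c. As levels, the si-2c libraries (2.63, 3.32 and 3.13 CPM) exceeded those of con-2c (0, 0.357 and 0.400 CPM), and those of si-4c (0, 0.376 and 0.269 CPM) lay below con-4c (2.53, 2.52 and 2.41 CPM). The log2 fold change was 3.56 (SE 0.73, adjusted p = 0.00139) in the 2c contrast and -3.50 (SE 0.75, adjusted p = 0.00134) in the 4c contrast. It was 3.27 (SE 0.73, adjusted p = 0.00205) in the control contrast. The crossed differences were -0.23 (SE 0.82, adjusted p = 0.997) in the first crossed contrast and 0.28 (SE 0.62, adjusted p = 0.900) in the second crossed contrast. The average was 0.03 with a wide 95% interval of -1.14 to 1.20. WEE1 was thus the member with the largest fold between con-4c and si-2c on one side and con-2c and si-4c on the other. Its interaction was -7.06 (SE 1.05, adjusted p = 3.15e-05), a fold that rests on 0 to 13 reads a library in con-2c and si-4c. CCNB1 had the smaller adjusted p (interaction 1.68, SE 0.15, adjusted p = 1.31e-07). The groups split the same way in other measures. The number of genes detected was high where WEE1 was high and CCNB1 low, and with TMM the summed oocyte markers were low there. BMP15 did not follow that sum, with 887 CPM for con-2c, 985 for con-4c, 1228 for si-2c and 1046 for si-4c. In the si contrast 3 of the 7 markers were higher and 1 lower with TMM (beside 28.9% of all genes), but 2 and 2 with library totals (36.7%). The part of these measures in the differences was not tested.

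WEE2, the oocyte form that keeps CDK1 inhibited during meiotic arrest (ENSSSCG00000016489, chr18:8171133-8196836), was read from 28527 to 50473 times a library. Its level was 1234, 1116 and 1155 CPM for con-2c, 1014, 1139 and 1056 CPM for si-4c, 1067, 945 and 965 CPM for con-4c and 864, 902 and 1083 CPM for si-2c. No si-2c library reached the lowest con-2c library, whereas si-4c and con-4c overlapped. In the 2c contrast WEE2 was lower by 0.30 (SE 0.09, adjusted p = 0.0182), but 0.10 higher with scaling by library totals (adjusted p = 0.472), and the call was lost without con-2c replicate 1, si-2c replicate 1 or si-2c replicate 2 (adjusted p between 0.0769 and 0.0973). It was also lost with the stricter filter (-0.21, adjusted p = 0.0536) and with only the groups compared (-0.29, adjusted p = 0.0738). The difference was 0.11 (SE 0.09, adjusted p = 0.385) in the 4c contrast and -0.10 (95% interval -0.23 to 0.04, adjusted p = 0.483) on average. The si effect differed between the titles (interaction 0.41, SE 0.13, adjusted p = 0.0145), with the opposite sign under library totals (-0.25, adjusted p = 0.157) and without passing under the stricter filter (0.21, adjusted p = 0.149).

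CDC25C, one of the phosphatases that activate CDK1 (ENSSSCG00000051455, chr2:140289156-140323696), was the only one of the 10 genes besides CCNB2 to pass in the average comparison. Control levels were 424, 472 and 465 CPM (con-2c) and 493, 476 and 457 CPM (con-4c). The si levels were 369, 396 and 354 CPM (si-2c) and 415, 399 and 409 CPM (si-4c). With TMM scaling every one of the 6 si libraries lay below every one of the 6 control libraries, by a narrow margin between si-4c and con-2c. The averaged log2 difference was -0.25 (SE 0.05, adjusted p = 0.00796, rank 312 by p among the genes tested), which leaves 84.0% of the control level. It remained past the threshold when any single library was left out (-0.27 to -0.23, adjusted p between 0.0070 and 0.0312), but not with scaling by library totals (-0.19, adjusted p = 0.0671). CDC25C was lower by 0.28 (SE 0.07, adjusted p = 0.00675) in the 2c contrast, 0.22 (SE 0.07, adjusted p = 0.0230) in the 4c contrast and 0.35 (SE 0.07, adjusted p = 0.00555) in the second crossed contrast. With library totals the 2c difference was 0.11 higher (adjusted p = 0.295), the 4c difference was -0.48 (adjusted p = 1.22e-04), and the second crossed difference, at -0.23, lost its call (adjusted p = 0.0864). The call in the 4c contrast was lost with no filter (-0.21, adjusted p = 0.0674) and without con-4c replicate 1 or 2 or without si-4c replicate 2 or 3 (adjusted p between 0.0675 and 0.102). In the first crossed contrast the difference was -0.15 (SE 0.07, adjusted p = 0.435), and the si effect did not pass as different between the titles (interaction 0.06, 95% interval -0.15 to 0.28). With library totals the interaction was -0.59 and passed (adjusted p = 2.95e-04).

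CDC25B, the other phosphatase (ENSSSCG00000007151, chr17:31910824-31929418), was 23.3, 21.0 and 19.8 CPM for con-2c, 18.7, 19.6 and 21.6 CPM for si-4c, 20.4, 18.9 and 17.3 CPM for con-4c and 31.0, 26.3 and 23.6 CPM for si-2c. The si-2c libraries were above all other libraries, by little for replicate 3. The difference was 0.33 (SE 0.12, adjusted p = 0.0503) in the 2c contrast, just short of the threshold (0.0354 with the DESeq2 Wald test, 0.0411 with DESeq2 size factors, 0.00861 with the stricter filter and 3.09e-04 with library totals, where the difference was 0.73), and 0.08 (SE 0.12, adjusted p = 0.656) in the 4c contrast. CDC25B was higher in si-2c than in con-4c by 0.52 (SE 0.12, adjusted p = 0.0150), a call lost without con-4c replicate 2 or 3 or si-2c replicate 1 (adjusted p between 0.0571 and 0.0897), and lower in si-4c than in si-2c by 0.43 (SE 0.12, adjusted p = 0.0131), a call lost without si-2c replicate 1 or si-4c replicate 1 (adjusted p 0.0865 and 0.0601). With library totals the latter difference was -0.81 (adjusted p = 1.33e-04). The averaged difference was 0.21 (95% interval 0.02 to 0.39, adjusted p = 0.212).

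**Figure D3:**
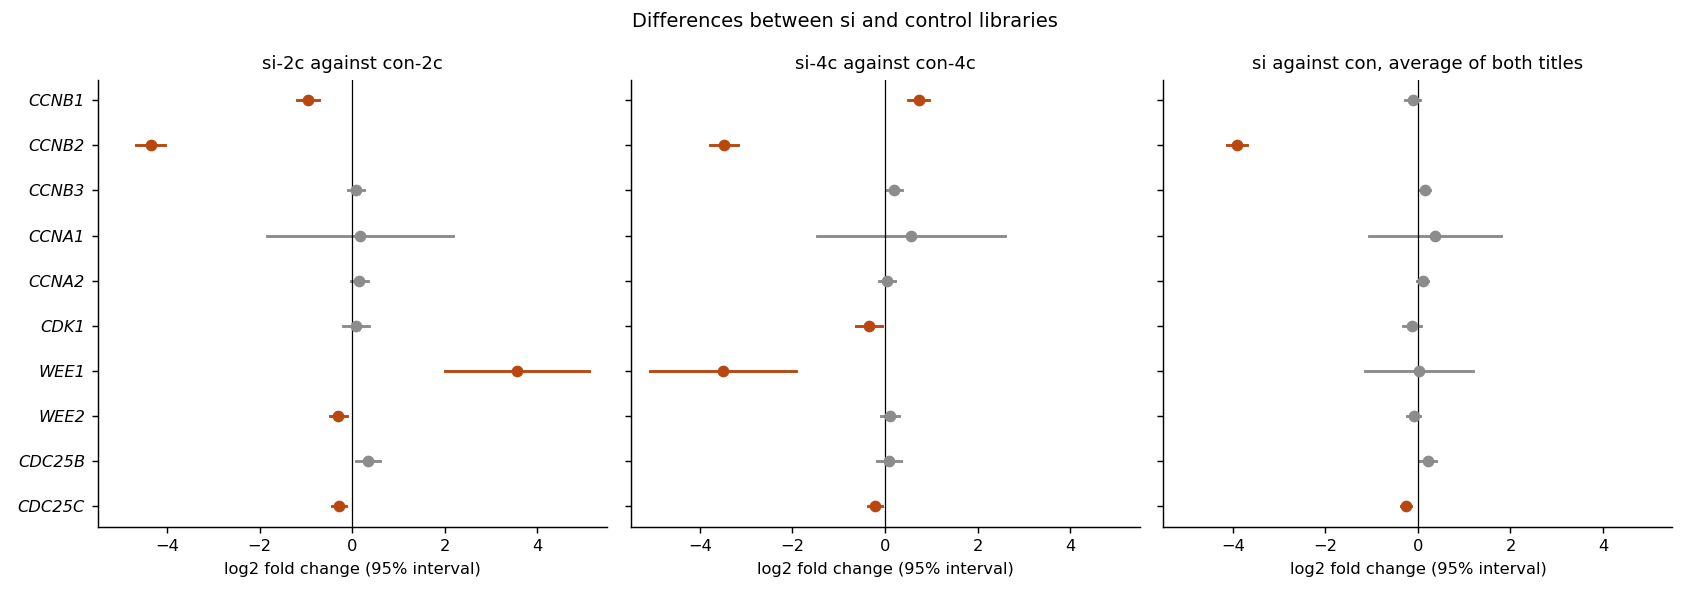
Log2 fold changes of the 10 genes (points) with 95% intervals (lines) in the 2c contrast, the 4c contrast and the average of both, with genes past an adjusted p of 0.05 in orange and the others in grey. CCNB1 and WEE1 lie on opposite sides of 0 under the titles and near 0 on average, and CCNB2 and CDC25C are below 0 in all 3 panels.

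The remaining comparisons set the stage titles against each other and cross them. In the control contrast, 2 of the 10 genes passed (CCNB1 lower, WEE1 higher), beside 35.8% of all genes, and 1 (WEE1) with at least 2-fold, beside 17.7%. In the si contrast, 4 of 10 passed (CCNB1 and CCNB2 higher, WEE1 and CDC25B lower), beside 28.9%, and 1 (WEE1) with at least 2-fold, beside 13.3%. In the first crossed contrast, 1 of 10 passed (CCNB2, also at 2-fold), beside 0.672% (0.333% at 2-fold). In the second, 3 of 10 did (CCNB2 and CDC25C lower, CDC25B higher), beside 7.54%, and at 2-fold CCNB2 alone, beside 1.79%. In the interaction 4 of 10 passed (CCNB1, CCNB2, WEE1 and WEE2), beside 45.5%, and 2 (CCNB1 and WEE1) at 2-fold, beside 32.4%. With library totals 6 genes passed in the control contrast (5 higher, 1 lower), 8 in the si contrast (2 higher, 6 lower) and 7 in the interaction (1 higher, 6 lower), beside 36.6%, 36.7% and 50.3%. With TMM the 2 of the control contrast became 4 without si-2c replicate 3 or with only the groups compared. CCNB1 rose by 0.96 (SE 0.11, adjusted p = 4.65e-06) from si-2c to si-4c (0.57 with library totals, adjusted p = 2.61e-04), and WEE1 fell by 3.79 (SE 0.75, adjusted p = 9.78e-04). These are the opposite of the directions of both genes between the control titles.

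Scaling matters for the small differences. TMM factors ran from 0.852 to 1.21. With library totals in their place, the median log2 fold change of all genes tested moved from 0.12 to 0.52 in the 2c contrast, from -0.11 to -0.37 in the 4c contrast and from -0.01 to 0.06 on average. The share of all called genes that were higher moved with it: 2995 higher and 2218 lower in the 2c contrast with TMM, 6049 and 678 with totals, and 2721 and 3897 in the 4c contrast with TMM, 1369 and 5286 with totals. Relative to the all-gene median with TMM, the difference in the 2c contrast was -1.08 for CCNB1, -0.42 for WEE2, -0.41 for CDC25C, -0.04 for CDK1, -0.03 for CCNB3, 0.03 for CCNA2 and 0.21 for CDC25B, and in the 4c contrast it was 0.84 for CCNB1 and -0.11 for CDC25C. A change of scaling moves all genes and their median alike, so these values are nearly the same with totals by construction and do not say which scaling is right.

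A list of 32 other genes that act on or with CDK1 and the B cyclins was examined for context, of which 28 were in the table and 27 were tested (CDC25A, AURKA, ENSA and PPP2R2D were not matched by symbol). In the 2c contrast 16 of the 27 passed (6 higher, 10 lower), beside 29.0% of all genes, and their median was -0.17 against 0.12 over all genes. In the 4c contrast 12 passed (10 higher, 2 lower), beside 36.8%, with a median of 0.15 against -0.11. On average 5 passed (2 higher, 3 lower), beside 5.0%, with a median of -0.01 against -0.01, and none of the 5 reached 2-fold. With library totals 13 passed in the 2c contrast (10 higher, 3 lower), 12 in the 4c contrast (6 higher, 6 lower) and 4 on average (2 higher, 2 lower). The shares of all genes were then 37.4%, 37.0% and 4.7%, so the balance of directions depended on the scaling. With TMM the count in the 2c contrast was 10 without si-2c replicate 1. The count on average was then 2 or 3 without con-2c replicate 2, any con-4c replicate, si-2c replicate 1 or si-4c replicate 2 or 3. CKS2, which helps CDK1 to engage its substrates, had means of 574 ± 43.6 CPM for con-2c, 559 ± 63.4 for si-4c, 2013 ± 65.6 for con-4c and 1177 ± 81.6 for si-2c. It rose by 1.04 (SE 0.09, adjusted p = 1.86e-07) in the 2c contrast, fell by 1.85 (SE 0.09, adjusted p = 8.33e-11) in the 4c contrast and fell by 0.41 (SE 0.06, adjusted p = 9.47e-04) on average. CKS1B, its paralog, moved the other way, by -0.71 (SE 0.08, adjusted p = 2.80e-06) and 0.69 (SE 0.08, adjusted p = 2.47e-06), or by -0.31 and 0.43 with library totals (adjusted p = 6.18e-04 and 2.52e-05).

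The checkpoint kinase gene CHEK2, whose product restrains CDC25 phosphatases after DNA damage, was 7.69 ± 0.339 CPM for con-2c, 7.49 ± 1.64 for si-4c, 44.3 ± 4.17 for con-4c and 16.6 ± 1.45 for si-2c. It rose by 1.11 (SE 0.15, adjusted p = 2.29e-05) in the 2c contrast, fell by 2.56 (SE 0.15, adjusted p = 7.68e-10) in the 4c contrast and fell by 0.73 (SE 0.10, adjusted p = 4.76e-04) on average. FBXO5, an inhibitor of the ligase that destroys cyclins, fell by 0.80 (SE 0.07, adjusted p = 1.24e-07) in the 2c contrast, rose by 0.45 (adjusted p = 4.30e-05) in the 4c contrast and fell by 0.17 (adjusted p = 0.0421) on average. With library totals its 2c and 4c differences were -0.40 (adjusted p = 2.17e-04) and 0.19 (adjusted p = 0.0345). MNAT1, part of the complex that activates CDK1 by phosphorylation, rose by 0.52 (SE 0.07, adjusted p = 1.09e-05) in the 4c contrast (0.26 with library totals, adjusted p = 0.0162) and fell by 0.43 (adjusted p = 1.11e-04) in the 2c contrast, a call lost with library totals (-0.036, adjusted p = 0.773). On average PPP2CB, a catalytic subunit of the phosphatase that opposes CDK1, was higher by 0.25 (SE 0.06, adjusted p = 0.0268) and FBXO43, a meiotic relative of FBXO5, by 0.23 (SE 0.06, adjusted p = 0.0393). The averaged calls of PPP2CB, FBXO43 and FBXO5 were lost in 5, 8 and 10 of 12 refits that left out 1 library, and that of FBXO5 also with library totals (-0.10, adjusted p = 0.256).

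The list of regulators of G2/M promoters held 20 genes, of which 19 were tested (RBBP4 was not matched). They are subunits of the MuvB core and its partners, E2F and pocket proteins and the NF-Y subunits, which bind the promoters of cyclin B and related genes. In the 2c contrast 9 of 19 passed (5 higher, 4 lower), in the 4c contrast 8 (4 higher, 4 lower) and on average 3 (1 higher, 2 lower), beside 29.0%, 36.8% and 5.0% of all genes. With library totals these counts were 7 (6 higher, 1 lower), 7 (2 higher, 5 lower) and 2 (1 higher, 1 lower), beside 37.4%, 37.0% and 4.7% of all genes. Their medians with TMM were -0.22, 0.01 and -0.04, against 0.12, -0.11 and -0.01 over all genes. NFYA, a DNA-binding subunit of NF-Y, was 9.15 ± 0.242 CPM for con-2c, 12.3 ± 1.68 for si-4c, 45.1 ± 3.31 for con-4c and 21.4 ± 1.85 for si-2c. It rose by 1.22 (SE 0.12, adjusted p = 1.07e-06) under the 2c titles and fell by 1.87 (SE 0.12, adjusted p = 3.14e-09) under the 4c titles. LIN54, the DNA-binding MuvB subunit, likewise rose by 1.27 (SE 0.17, adjusted p = 1.90e-05) and fell by 1.93 (SE 0.17, adjusted p = 1.06e-07). LIN37, another MuvB subunit, fell by 1.02 (SE 0.12, adjusted p = 8.52e-06) and rose by 0.73 (SE 0.12, adjusted p = 1.77e-04), or by -0.64 and 0.47 with library totals (adjusted p = 8.80e-04 and 0.00806). LIN52, also of MuvB, fell by 0.38 (SE 0.08, adjusted p = 0.00192) and rose by 0.29 (SE 0.08, adjusted p = 0.0103), but with library totals these were 0.025 (adjusted p = 0.861) and 0.031 (adjusted p = 0.833). MYBL1, an oocyte and testis MYB factor, rose by 0.77 (SE 0.09, adjusted p = 6.41e-06) under the 4c titles (0.51 with library totals, adjusted p = 0.00237). On average NFYB was lower by 0.46 (SE 0.08, adjusted p = 0.00360), NFYA lower by 0.32 (SE 0.09, adjusted p = 0.0365) and MYBL1 higher by 0.27 (SE 0.07, adjusted p = 0.0261). The averaged calls of NFYA and MYBL1 were lost in 10 and 7 of 12 refits that left out 1 library, and that of NFYA also with library totals (-0.26, adjusted p = 0.148). The count of 3 on average was 1 without con-2c replicate 1 or 2, con-4c replicate 1 or 2, si-2c replicate 1 or si-4c replicate 2 or 3.

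**Figure D4:**
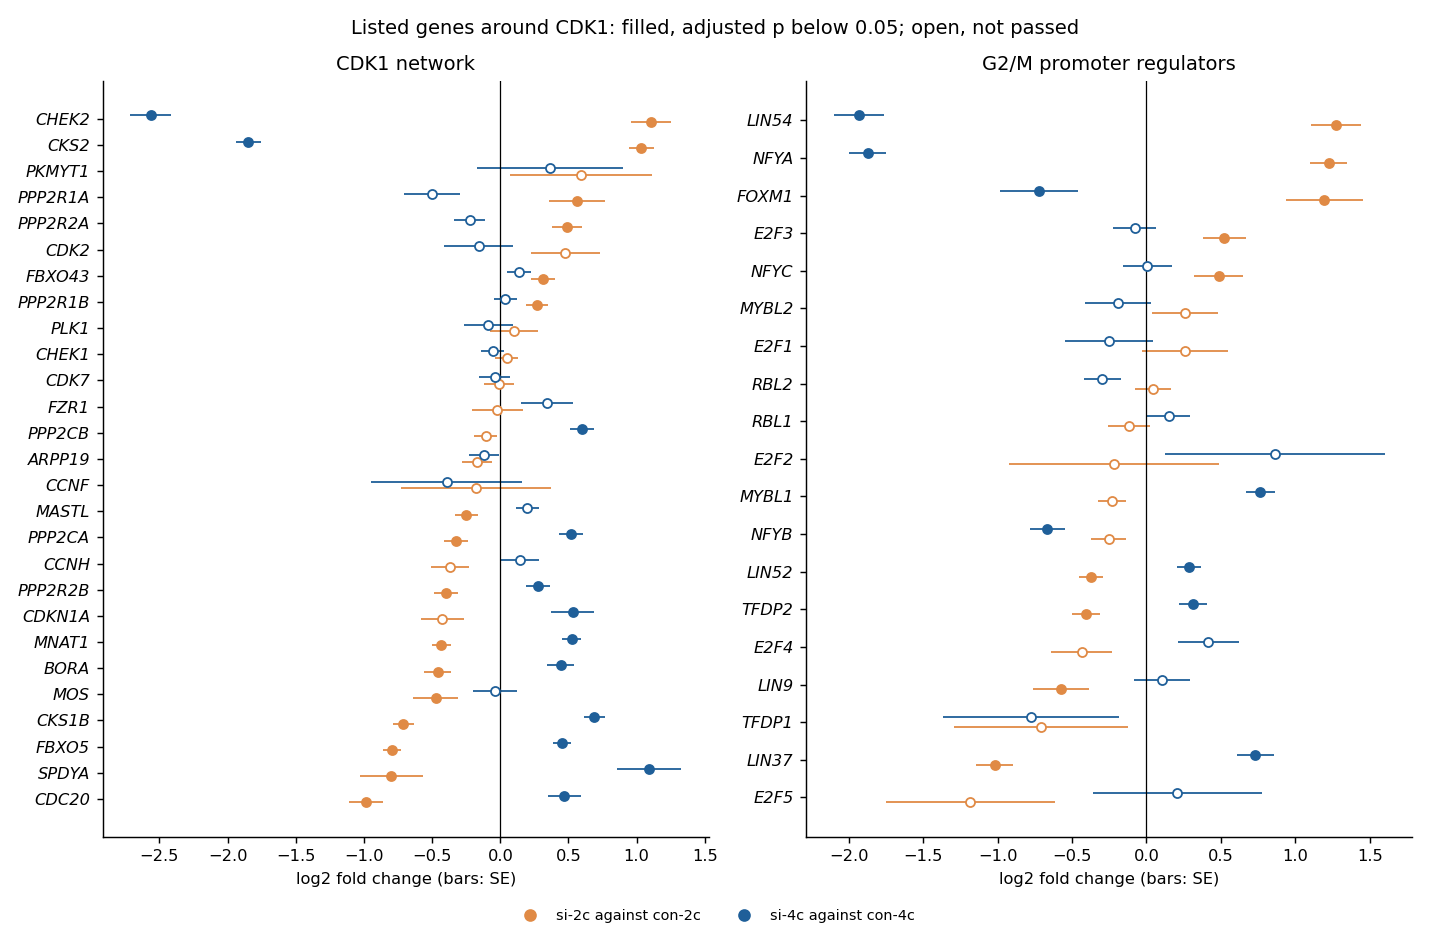
Log2 fold changes (horizontal axes, points with SE bars) of the tested genes of the CDK1 network (27) and of the G2/M promoter regulators (19) in the 2c contrast (orange) and the 4c contrast (blue), with filled points for an adjusted p below 0.05. CKS2, CHEK2, NFYA and LIN54 lie above 0 in orange and below 0 in blue, and CKS1B, FBXO5 and LIN37 the reverse.

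The genes with the profile most like each of 4 members were found by the root mean square difference of log2 CPM over the 12 libraries, each profile centered on its mean, among 6089 genes (6090 for WEE1) with a symbol and at least 10 CPM on average. For CCNB1 they were SCFD1 (0.0656), EIF2S1 (0.0795) and SNX2 (0.0907), while CCNB1 itself varied by 0.448. SCFD1 averaged 245 CPM for con-2c, 259.8 for si-4c, 160.5 for con-4c and 130.3 for si-2c, in the same order as CCNB1 except that si-4c exceeded con-2c. For CDK1 they were G2E3 (0.0998), COPA (0.103) and FRYL (0.104), beside 0.209 for CDK1 itself. For CCNB2 no gene came close: C6orf52, TEFM and POLR2F differed by 1.51, 1.57 and 1.58, beside 2.00 for CCNB2 itself. For WEE1 the nearest were SNRPB (0.955), DHX9 (0.998) and DHX15 (1.004), beside 2.09 for WEE1 itself. These are descriptions over 12 libraries of 4 groups.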

How the data were processed

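The authors deposited 1 table of raw read counts by Ensembl gene for the 12 SMART-seq libraries, in whole numbers without normalization. Per the labels, the submitters' processing notes name cutadapt 1.9, HISAT2 2.2.1, StringTie 2.1.6, DESeq2, edgeR and the build Sscrofa11.1. How reads were counted, the annotation release and the use of strand are not given in the sources used here, so genes with close copies or overlapping neighbors are uncertain. Gene coordinates are those of a RefSeq gene table of the same build. The siRNA and primer sequences are those the study lists. No promoter or protein sequence was used here.

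The counts were analyzed in R 4.3.3 with edgeR 4.0.16: low counts were removed by filterByExpr, libraries scaled by TMM, group means of all 12 libraries fitted in a single quasi-likelihood model, and p-values Benjamini-Hochberg adjusted over the 17995 genes tested in each comparison. A gene passed at an adjusted p below 0.05. Standard errors were the log2 fold change over the square root of its F statistic, and intervals are 95%. The common dispersion was 0.0745 (biological coefficient of variation 27.3%). Amplified reads without molecular identifiers are not independent molecules, so replicate libraries set the precision; chi-square per degree of freedom between replicates was 7.27 to 38.7, and no library was a copy of another. CPM were computed from the counts and are not comparable between genes of different length. The fit was tested on simulated data.

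All members are named. Of the 2 lists, the genes named are those with the smallest p in each direction in the same-title and average comparisons, at 10 CPM or more in a group. The members and lists were chosen with earlier results of these data known. The alternatives were DESeq2 1.42.0, other scalings and filters, the replicate number as a block, only the groups compared, and leaving out each library.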

Additional observations from a re-analysis of the deposited data

Results flagged for a closer look

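The si effect differed between the 4c and the 2c titles (interaction of si and title, edgeR, adjusted over all genes tested) for 4 of the 10 members, beside 45.5% of all genes and an all-gene median of -0.23. It also did for 11 of the 13 other genes named, which were picked by their p in the contrasts that make up the interaction, so nothing is read from that count. In log2 units, with positive values for a more positive si effect under the 4c titles, the interaction was 1.68 for CCNB1, 0.88 for CCNB2, -7.06 for WEE1 and 0.41 for WEE2. With library totals the interaction was 1.02 for CCNB1 (adjusted p = 1.23e-05) and -7.68 for WEE1 (adjusted p = 1.25e-05), beside an all-gene median of -0.88. For CCNB2 and WEE2 it was then 0.23 and -0.25 and did not pass (adjusted p = 0.299 and 0.157). Among genes that act with CDK1 the interaction with TMM was 1.40 for CKS1B, -2.88 for CKS2, 0.96 for MNAT1, 0.71 for PPP2CB, -3.67 for CHEK2 and 1.25 for FBXO5. With library totals the 2c and 4c differences of PPP2CB were nearly alike (0.29 and 0.34). In that order they were -0.036 and 0.26 for MNAT1, -0.40 and 0.19 for FBXO5 and -0.31 and 0.43 for CKS1B. For CKS2 they were 1.43 and -2.11, and for CHEK2 1.51 and -2.82. Among the promoter regulators the interaction with TMM was 1.75 for LIN37, 0.66 for LIN52, -3.21 for LIN54, 0.996 for MYBL1 and -3.10 for NFYA. With library totals the 2c and 4c differences of LIN52 were nearly alike (0.025 and 0.031). In that order they were 0.17 and 0.51 for MYBL1, -0.64 and 0.47 for LIN37, 1.67 and -2.19 for LIN54 and 1.62 and -2.13 for NFYA. With TMM the adjusted p of the interaction was 0.0145 for WEE2 and 7.89e-04 or lower for the other 14. The title and tissue labels give opposite stages in all 12 libraries, and a si effect that depends on stage cannot be told apart from stage labels that differ between the arms.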

How the results depend on the processing

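The fall of CCNB2 passed under every alternative in the 2c, 4c, average and crossed contrasts, and so did the opposite changes of CCNB1 and WEE1 under the 2c and 4c titles wherever these genes were tested, except that CCNB1 did not reach the minimum of 2-fold under either title. With at least 2-fold, the genes passing numbered 2 in the 2c contrast, 2 in the 4c contrast, 1 in the average contrast, 1 in the control contrast, 1 in the si contrast, 1 in the second crossed contrast and 2 in the interaction. With library totals they numbered 7 in the 2c contrast (5 higher) and 1 in the average contrast, beside 37.4% and 4.7% of all genes. They were then 6 in the control contrast, 8 in the si contrast and 7 in the interaction, beside 36.6%, 36.7% and 50.3%. With TMM and only the groups compared, 4 passed in the control contrast. Members that gained calls in such refits included CDK1 and WEE2 in the control contrast with only the groups compared (0.30 and -0.22, adjusted p = 0.0428 and 0.0335) and CDC25B in the interaction with library totals (-0.91, adjusted p = 6.19e-04). Leaving out 1 library gave 3 to 6 genes in the 4c contrast (3 when si-4c replicate 3, con-4c replicate 1 or con-4c replicate 2 was left out) and 2 to 4 in the control contrast (4 without si-2c replicate 3). The shift of the all-gene median under library totals is built into that scaling, and for the other changes the cause was not tested.

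Log2 differences with library totals were followed for the members, and for the named list genes in the 2c, 4c and average contrasts they had passed with TMM. Those that turned sign were WEE2 0.10, CDC25C 0.11 and LIN52 0.025 in the 2c contrast. In the 4c contrast they were CDC25B -0.17, CCNB3 -0.060, WEE2 -0.15 and CCNA2 -0.21. In the control contrast they were CDC25B 0.094, CCNA1 0.12, CCNB3 0.26 and WEE2 0.039. In the si contrast they were CCNA1 -0.17, CCNB3 -0.29, WEE2 -0.21 and CDC25C -0.25. The crossed contrasts held CCNB1 0.021 (first) and WEE2 0.062 (second), and the interaction CCNA1 -0.29, CCNB3 -0.55, WEE2 -0.25 and CDC25C -0.59. Of these, WEE2, CDC25C and LIN52 in the 2c contrast and WEE2 in the interaction had passed with TMM. Oocyte markers that turned sign were GDF9 0.022, ZP3 0.020 and NLRP5 0.24 in the 2c contrast and ZP2 -0.042 and BMP15 -0.17 in the 4c contrast. GDF9 and ZP2 had passed there with TMM. With the stricter filter (which removed CCNA1 and WEE1) the members that turned sign were CDC25B -0.026, WEE2 -5.11e-04 and CCNA2 -0.064 in the 4c contrast. They were also CCNB3 0.078 in the control contrast, CCNB3 -0.0093 in the si contrast, and CCNB3 -0.088 and CDC25C -0.13 in the interaction. CCNB3 in the control contrast was 0.020 with DESeq2 size factors, 0.0021 with only the groups compared and 0.017 with the DESeq2 Wald test.

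Leaving out 1 library at a time, ranges that crossed 0 were CCNA1 -0.48 to 1.20, CDK1 -0.10 to 0.20 and CCNB3 -0.0057 to 0.14 in the 2c contrast, CCNA1 -0.016 to 1.85 and CCNA2 -0.0050 to 0.089 in the 4c contrast, WEE1 -0.31 to 0.31 in the average contrast, CCNA1 -1.45 to 0.85, CCNA2 -0.013 to 0.055, CCNB2 -0.031 to 0.098 and CCNB3 -0.043 to 0.019 in the control contrast, CCNA1 -0.059 to 0.88 and CDK1 -0.27 to 0.033 in the si contrast, CDK1 -0.18 to 0.0066, CCNB1 -0.13 to 0.088 and WEE1 -0.90 to 0.34 in the first crossed contrast, CCNA1 -0.31 to 1.63 and WEE2 -0.17 to 0.0034 in the second crossed contrast, and CCNA1 -0.63 to 1.67 in the interaction. None of these values passed the test with TMM.

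The replicate numbers did not pair the libraries: the correlation of deviations from the group means over 18 same-number pairs was -0.05 to 0.03, and 3 of 12 libraries correlated best with their own number. With the replicate number as a block, 5, 4 and 2 genes passed in the 2c, 4c and average contrasts, CDK1 being lost in the 4c contrast (adjusted p = 0.0596), and the averaged calls of PPP2CB, FBXO43 and FBXO5 were lost (adjusted p = 0.0552, 0.0601 and 0.0774), leaving 2 of the 5 in the CDK1 network. Counts of 0 to 44 a library limit CCNA1, and 0 to 13 limit WEE1 in con-2c and si-4c.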

Other observations

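Of the 7 oocyte marker genes tested, 3 fell (OOEP, ZP4 and GDF9) and 1 rose (BMP15) in the 2c contrast, and in the 4c contrast 6 rose and BMP15 did not pass, beside 29.0% and 36.8% of all genes. With library totals 2 fell (OOEP and ZP4) and 2 rose (BMP15 and ZP2) in the 2c contrast, beside 37.4% of all genes. OOEP and ZP4 alone passed in the 4c contrast, both higher, beside 37.0%. The values that follow are with TMM. OOEP, which encodes a component of the maternal complex under the oocyte surface, fell by 1.61 (SE 0.08, adjusted p = 3.29e-10) in the 2c contrast and rose by 1.47 (SE 0.08, adjusted p = 4.63e-10) in the 4c contrast, and its averaged difference was -0.07 (adjusted p = 0.619). ZP4, a zona pellucida protein gene, fell by 1.22 (SE 0.12, adjusted p = 5.67e-07) and rose by 0.62 (SE 0.11, adjusted p = 4.22e-04) in these comparisons and was lower by 0.30 (SE 0.08, adjusted p = 0.0412) on average (-0.22 with library totals, adjusted p = 0.0880). GDF9, an oocyte growth factor gene, fell by 0.38 (adjusted p = 0.00994) and rose by 0.47 (adjusted p = 0.00179), whereas with library totals it was 0.022 and 0.21 (adjusted p = 0.902 and 0.169). BMP15, a related factor, rose by 0.47 (adjusted p = 8.55e-05) in the 2c contrast, was 0.09 higher (adjusted p = 0.377) in the 4c contrast and rose by 0.28 (SE 0.05, adjusted p = 0.00356) on average. With library totals these were 0.86, -0.17 and 0.35 (adjusted p = 6.61e-07, 0.125 and 0.00271). ZP2, ZP3 and NLRP5 did not pass in the 2c contrast (0.04, -0.36 and -0.16, adjusted p = 0.767, 0.0762 and 0.553) and rose in the 4c contrast by 0.22, 0.62 and 0.54 (adjusted p = 0.0320, 0.00347 and 0.0200). With library totals these 4c differences were -0.042, 0.36 and 0.28 and did not pass (adjusted p = 0.751, 0.0828 and 0.232), that of ZP2 with the sign turned.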
